A study of Mus musculus with 15 samples.

Results

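The genes described here make, carry and load the peptides that class I major histocompatibility complex (MHC) molecules display at the cell surface. They are 10 of the 24891 genes of the expression table, taken by name: NLRC5, B2M, TAP1, TAP2, TAPBP, TAPBPL, PSMB8, PSMB9, PSMB10 and ERAP1. All 10 passed the filter on low values in every comparison.

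RNA was sequenced from tumors of 105K cells, a mouse renal tumor line without Tsc2, the gene whose loss activates mTORC1. All 5 groups carried a stably expressed shRNA and grew under the skin of male wild-type C57BL/6J mice that received the cells at 6 weeks of age, and each group had 3 libraries. The bulk tumor groups expressed sh-NC, a non-targeting control, or sh-B7-H3 (1), an shRNA against the checkpoint protein B7-H3. The sorted groups, tumor cells left after magnetic depletion of other cells, expressed sh-NC, the same sh-B7-H3 (1), or a separate shRNA against this target, sh-B7-H3 (2). The lines were selected pools rather than single clones, and the hosts had intact immune systems. The methods call the 3 samples of a group biological samples, and the labels do not say whether each came from a separate mouse, so p-values measure the spread between these libraries, which may be in part technical.

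Proteins in the cytosol are cut by the proteasome, and cells exposed to interferon-γ replace its 3 catalytic subunits by the inducible PSMB8, PSMB9 and PSMB10, which form the immunoproteasome. The TAP1 and TAP2 transporter pumps the resulting peptides into the endoplasmic reticulum, where ERAP1 trims them and tapasin (TAPBP) and its relative TAPBPL edit which peptides stay bound to a class I heavy chain and its light chain B2M. NLRC5 has no DNA-binding domain of its own and acts as the transactivator of class I genes by joining factors already bound at their promoters.

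On chromosome 17 of the mouse build GRCm38, PSMB9, TAP1, PSMB8 and TAP2 lay side by side within 34335 bases, from 34181987 to 34216321, in the MHC class II region. TAPBP lay on the same chromosome, from 33915899 to 33929292. The gene models of TAP1 and PSMB9 run away from each other on opposite strands and overlap by 212 bases. RefSeq windows of 300 bases, from 250 before to 50 after the RefSeq gene start, were found for 7 of the 10 genes, all but NLRC5, TAP2 and TAPBPL. The positions above are from GENCODE, whose gene starts can differ. The windows of TAPBP, PSMB9, PSMB8 and ERAP1 lie wholly inside the GENCODE gene models, so their motif matches are not upstream of the GENCODE starts. The windows of TAP1 and PSMB9 share 275 bases, so both cover nearly the same bases, read from either side. The 4 windows below are shown because they belong to the neighbouring TAP1 and PSMB8, to ERAP1, and to B2M, the gene that behaved differently from the others. They are written on the gene's strand, and capitals mark matches on either strand to 5 motifs: the paired interferon regulatory factor motif GAAANNGAA, the gamma-activated sequence TTCNNNGAA, the CCAAT box, the letters TGACG of the cyclic AMP response element, and the NF-kappaB consensus.
B2M, chr2:122147437-122147736 (+): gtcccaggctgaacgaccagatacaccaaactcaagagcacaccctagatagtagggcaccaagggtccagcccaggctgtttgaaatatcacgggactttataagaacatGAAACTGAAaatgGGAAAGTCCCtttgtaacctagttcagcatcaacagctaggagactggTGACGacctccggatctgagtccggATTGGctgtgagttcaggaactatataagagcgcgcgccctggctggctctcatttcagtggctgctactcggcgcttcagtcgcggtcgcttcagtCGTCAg
TAP1, chr17:34187306-34187605 (+): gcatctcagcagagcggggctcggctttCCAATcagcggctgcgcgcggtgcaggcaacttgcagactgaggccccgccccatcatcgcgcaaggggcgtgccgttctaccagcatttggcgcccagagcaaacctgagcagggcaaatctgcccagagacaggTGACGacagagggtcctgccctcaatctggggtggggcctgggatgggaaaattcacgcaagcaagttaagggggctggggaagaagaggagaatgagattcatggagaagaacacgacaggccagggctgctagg
PSMB8, chr17:34197945-34198244 (+): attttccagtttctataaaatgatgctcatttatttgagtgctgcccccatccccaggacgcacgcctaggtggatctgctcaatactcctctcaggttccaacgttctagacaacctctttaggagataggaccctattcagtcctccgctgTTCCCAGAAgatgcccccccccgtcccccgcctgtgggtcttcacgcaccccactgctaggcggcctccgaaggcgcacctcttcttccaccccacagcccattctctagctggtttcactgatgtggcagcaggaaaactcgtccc
ERAP1, chr13:74639603-74639902 (+): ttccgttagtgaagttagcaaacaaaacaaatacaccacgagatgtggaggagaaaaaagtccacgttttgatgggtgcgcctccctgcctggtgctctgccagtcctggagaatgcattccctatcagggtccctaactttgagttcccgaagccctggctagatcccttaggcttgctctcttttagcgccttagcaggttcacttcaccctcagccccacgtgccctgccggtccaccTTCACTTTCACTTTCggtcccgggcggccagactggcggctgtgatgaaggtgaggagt

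The paired interferon regulatory factor motif was present in the B2M window at position -139 from the RefSeq start and in the ERAP1 window at -9 and -3, where the matches overlap. This motif was in 8.56% of 32851 RefSeq promoter windows of the same length. The gamma-activated sequence was found in PSMB8 at -97 (8.3% of all windows), and the NF-kappaB consensus in B2M at -126 (8.46%). A CCAAT box was in the windows of B2M, TAPBP, PSMB9 and TAP1 (37.4% of all windows), and TGACG in those of B2M, PSMB9 and TAP1 (20.8%). The PSMB10 window held none of these letters, and the B2M window held 4 of the 5 motifs. A match describes the letters in this window and is not evidence of binding.

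The values below are FPKM divided by a scaling factor of the library, in which gene length is accounted for, so levels of different genes can be set side by side. Read totals were not in the tables. Relative depth, read from the spacing of the lowest values, ran from 0.468 to 1, and scaling factors from 0.650 to 1.180. All 7 renal epithelial markers examined, PAX8 and EPCAM among them, were at 1 or more in every library, with sums from 676 to 1330. In sorted cells these sums were 766 to 950 with sh-NC and 1070 to 1330 with either shRNA against B7-H3, although not all 7 markers moved the same way. Of 20 leukocyte markers, the summed level was 31.8 to 42.2 in sorted sh-NC cells, with 2 or 3 markers at 1 or more and 8 to 11 at 0. It was 65.2 to 93.3 in sorted sh-B7-H3 (1) cells and 61.1 and 72.7 in 2 of the sorted sh-B7-H3 (2) libraries. Replicate 1 of sorted sh-B7-H3 (2) stood apart at 555, with 15 of the 20 markers at 1 or more and none at 0, and its 4 endothelial markers summed to 14.5 against 0.25 to 0.646 in the other sorted libraries. Bulk tumors had leukocyte sums of 414 to 784. Counts of called genes and some calls of single genes are also given without replicate 1 of sorted sh-B7-H3 (2). The fold changes, ranks and correlations for sh-B7-H3 (2) or both shRNAs include it unless stated.

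The RNA of the targeted gene, CD276, was 34.0, 20.0 and 17.3 scaled FPKM in the sorted sh-NC libraries and 7.29, 14.0 and 11.5 in those labelled sh-B7-H3 (1). The libraries labelled sh-B7-H3 (2) held 23.3, 25.4 and 25.7. Levels in the sh-B7-H3 (1) libraries were therefore below every sh-NC library (log2 fold change -1.04, adjusted p = 0.0547), whereas those of sh-B7-H3 (2) overlapped with sh-NC. In bulk tumors CD276 was 20.8 to 23.5 with sh-NC and 17.8 to 24.4 in the libraries labelled sh-B7-H3 (1). The groups below are named by their labels.

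Sorted tumor cells with either shRNA against B7-H3 had more RNA of the immunoproteasome, the peptide transporter, the peptide editors, ERAP1 and NLRC5 than sorted sh-NC cells, and B2M did not pass the test. With both shRNAs taken as 1 group of 6 against 3 sh-NC libraries, 9 of the 10 genes were called higher by limma at an adjusted p below 0.05, where 12.6% of the 11424 genes tested were called higher. None was lower. In the same 9 genes each of the 6 libraries lay above each sh-NC library, which held for 13.6% of the genes tested. The median log2 fold change of the 10 genes was 1.55, against 0.01 for all genes. Fold changes are on the scale of log2(scaled FPKM + 1), which understates the change of genes at low levels, NLRC5 most of all. In bulk RNA fewer cells of a type and less RNA per cell cannot be told apart.

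**Figure D1:**
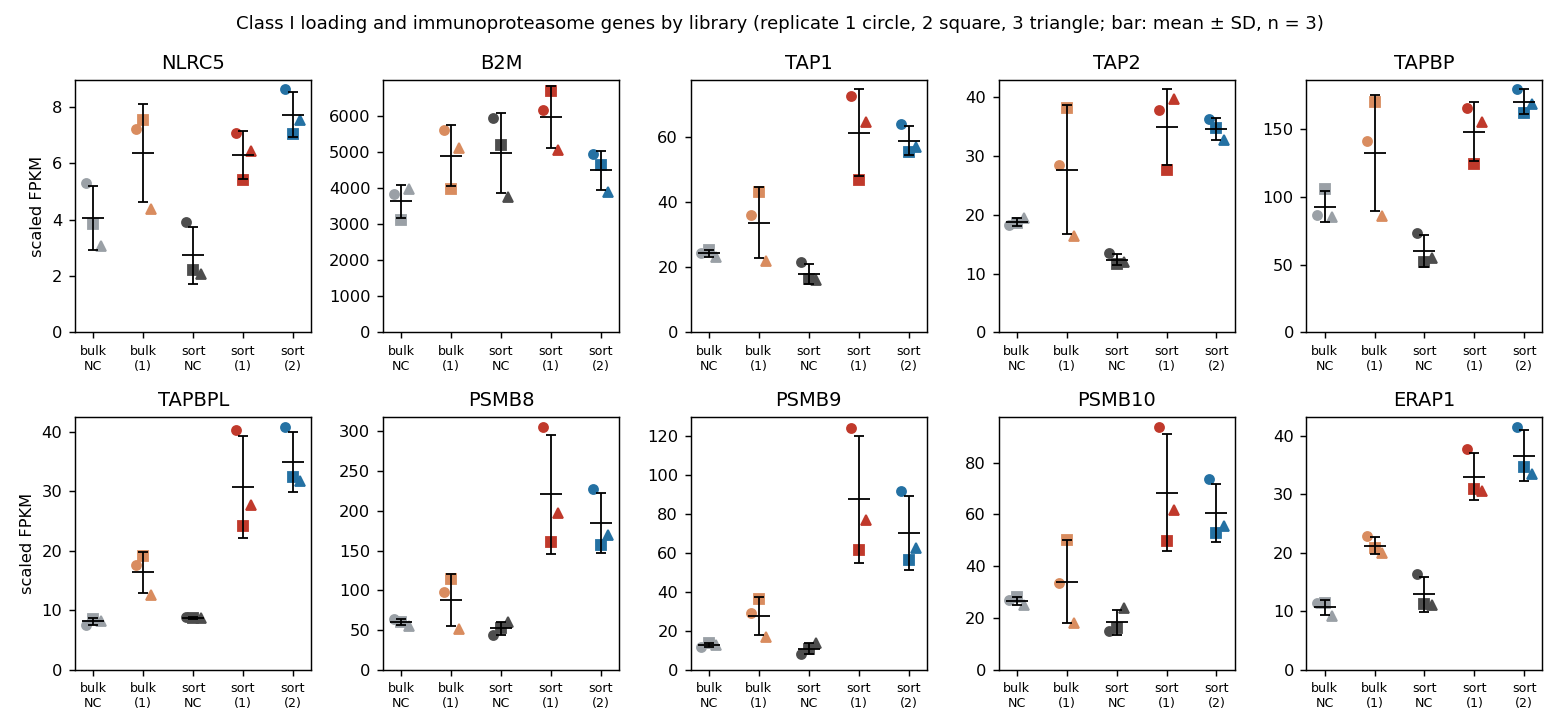
Scaled FPKM (linear axis from 0) of the 10 genes in each of the 15 libraries, by group (NC, sh-NC; (1) and (2), the shRNAs against B7-H3), with the mean and SD of 3 libraries. For every gene but B2M, the 6 sorted libraries with an shRNA against B7-H3 lie above the 3 sorted sh-NC libraries. The bulk sh-B7-H3 (1) libraries lie between these levels in some genes and reach into the range of either sorted group in others.

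The catalytic subunits of the immunoproteasome held the largest fitted changes, those of PSMB9 and PSMB8, while PSMB10 lay next to TAPBPL. PSMB9 (also called LMP2), the inducible partner of PSMB6, was at 8.07, 10.8 and 13.5 scaled FPKM in sorted sh-NC cells. It rose to 124, 61.5 and 77.0 with sh-B7-H3 (1) and to 91.6, 56.3 and 62.7 with sh-B7-H3 (2). The lowest of these 6 values was over the highest sh-NC value by a wide margin, which limma fitted as a log2 fold change of 2.73 with a standard error of 0.24 (6.64-fold; adjusted p = 2.4e-05); errors of later log2 fold changes are also standard errors. PSMB9 was thereby the gene that moved most in rank: it was 8th of the 10 by mean level in sorted sh-NC cells, overlapping with its neighbours TAP2 and TAPBPL, and 4th with either shRNA.

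PSMB8 (LMP7), the inducible counterpart of PSMB5, was at 43.3, 52.9 and 59.8 scaled FPKM in sorted sh-NC cells. The sh-B7-H3 (1) libraries held 305, 161 and 197, and the sh-B7-H3 (2) libraries 228, 157 and 169. Its log2 fold change was 1.92 ± 0.21 (3.77-fold; adjusted p = 9.74e-05). PSMB8 was, after B2M, the most abundant of the 10 transcripts in sorted cells with either shRNA, although its range overlapped with that of TAPBP for both shRNAs.

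PSMB10 (MECL-1), which takes the place of PSMB7, went from 14.9, 16.0 and 23.9 scaled FPKM with sh-NC to 93.6, 49.7 and 61.8 with sh-B7-H3 (1). With sh-B7-H3 (2) it was at 73.6, 52.9 and 55.5. The log2 fold change was 1.76 ± 0.21 (3.39-fold; adjusted p = 0.000186). All 3 inducible subunits had their highest value in replicate 1 of sh-B7-H3 (1) and their next highest in replicate 1 of sh-B7-H3 (2). The gene model of PSMB10 is covered along all its 2710 bases by an antisense RNA, Gm16156, and reads of the pair cannot be told apart unless strand was used in counting, which is not given in the sources used here.

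The constitutive subunits that the inducible ones replace did not pass the test in either direction. PSMB5 was 101, 149 and 235 scaled FPKM in sorted sh-NC cells and 125 to 185 in the 6 others (log2 fold change 0.07, 95% confidence interval -0.44 to 0.57). The interval was -0.40 to 0.32 for PSMB6 and -0.50 to 0.28 for PSMB7, so changes of the size seen in PSMB8, PSMB9 and PSMB10 lay outside all 3 intervals. The ratio of an inducible to a constitutive subunit within a library needs no scaling between libraries and was taken for each of the 3 pairs.

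PSMB9/PSMB6 was 0.0682, 0.0622 and 0.0705 in the sorted sh-NC libraries, a spread of 6.37% (coefficient of variation). It was 0.700, 0.360 and 0.524 with sh-B7-H3 (1) and 0.565, 0.420 and 0.465 with sh-B7-H3 (2). In sorted sh-NC cells there was thus far less RNA of the inducible than of the constitutive subunit of this pair, and with either shRNA the difference was much smaller. The ratio rose by 2.89 on the log2 scale (7.39-fold).

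PSMB8/PSMB5 was on average 0.347 ± 0.0883 (SD, n = 3) in sorted sh-NC cells, 1.41 ± 0.286 with sh-B7-H3 (1) and 1.11 ± 0.111 with sh-B7-H3 (2). All 6 libraries with an shRNA against B7-H3 lay above 1, the lowest at 1.03, so transcripts of the inducible subunit outnumbered those of the constitutive one per unit of length, which was the reverse in all 3 sh-NC libraries. PSMB10/PSMB7 was 0.0983 ± 0.0151, 0.370 ± 0.0992 and 0.380 ± 0.0237 in the same order. The log2 differences of both shRNAs from sh-NC were 1.87 and 1.93 (3.65-fold and 3.80-fold). For each of the 3 ratios, no library of 1 group reached the other, and the exact two-sided permutation p was 0.0238 (also 0.0238 after adjustment over the 3 ratios), the smallest that 6 against 3 libraries can give.

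**Figure D2:**
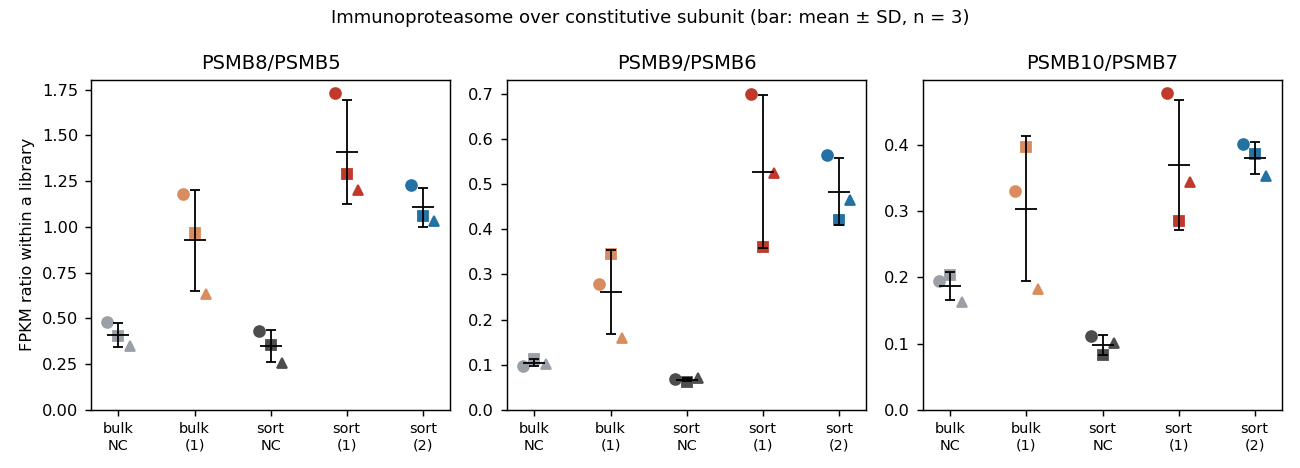
FPKM of an inducible proteasome subunit divided by that of its constitutive counterpart in the same library (linear axes from 0, a separate scale for each pair), for 5 groups of 3 libraries, with mean and SD. PSMB8/PSMB5 lies between 1.03 and 1.73 in the 6 sorted libraries with an shRNA against B7-H3 and between 0.255 and 0.431 in sorted sh-NC libraries, and the bulk sh-B7-H3 (1) libraries are spread widely in all 3 panels.

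TAP1, which with TAP2 forms the pump that moves peptides into the endoplasmic reticulum, was at 21.6, 16.4 and 16.1 scaled FPKM in sorted sh-NC cells. It was at 72.9, 46.8 and 64.6 with sh-B7-H3 (1) and at 64.0, 55.6 and 57.2 with sh-B7-H3 (2). The groups did not overlap, and TAP1 rose by 1.68 ± 0.15 on the log2 scale (3.21-fold; adjusted p = 2.09e-05). TAP2 went from 13.5, 11.7 and 11.9 scaled FPKM to 37.7, 27.6 and 39.6 with sh-B7-H3 (1) and 36.3, 34.7 and 32.7 with sh-B7-H3 (2). Its log2 fold change of 1.41 ± 0.12 (2.66-fold) had the lowest adjusted p of the 10 genes, 1.56e-05.

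The ratio TAP1/TAP2, whose products are needed in equal numbers, was 1.45 ± 0.137 in sorted sh-NC cells, 1.75 ± 0.160 with sh-B7-H3 (1) and 1.70 ± 0.0910 with sh-B7-H3 (2). The ratio of PSMB9 to TAP1, the genes with the overlapping windows, was 0.622 ± 0.234 with sh-NC, 1.40 ± 0.264 with sh-B7-H3 (1) and 1.18 ± 0.221 with sh-B7-H3 (2). Its range of 0.373 to 0.837 in the sh-NC libraries ended below the lowest value of both other sorted groups, 1.01. The ratios between members of the set were chosen after their values were seen and are given without a test. PSMB8 to PSMB10, by contrast, stayed within 2.50 to 3.31 in all 9 sorted libraries.

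TAPBP, the tapasin that bridges the class I molecule to the transporter, was at 73.3, 52.1 and 54.8 scaled FPKM in sorted sh-NC cells. It was 166, 124 and 155 with sh-B7-H3 (1) and 180, 162 and 169 with sh-B7-H3 (2). The log2 fold change was 1.40 ± 0.15 (2.64-fold; adjusted p = 6.98e-05). TAPBP shares 3422 bases with Zbtb22 on the same strand, and reads there could have been given to either gene.

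TAPBPL, the tapasin relative that edits peptides outside the loading complex, showed almost no spread in sorted sh-NC cells, at 8.84, 8.62 and 8.66 scaled FPKM (coefficient of variation 1.36%). It was 40.3, 24.1 and 27.7 with sh-B7-H3 (1) and 40.8, 32.4 and 31.7 with sh-B7-H3 (2). TAPBPL rose by 1.78 ± 0.16 on the log2 scale (3.43-fold; adjusted p = 2.4e-05). The TAPBPL gene model lies wholly within that of Vamp1 on the other strand, over 7928 bases.

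ERAP1, the aminopeptidase that shortens peptides to the length class I molecules hold, was at 16.3, 11.3 and 11.1 scaled FPKM in sorted sh-NC cells. It was at 37.7, 30.9 and 30.5 with sh-B7-H3 (1) and at 41.6, 34.7 and 33.5 with sh-B7-H3 (2). The log2 fold change was 1.37 ± 0.14 (2.59-fold; adjusted p = 6.16e-05). ERAP1 is the gene whose window printed above holds the overlapping pair of interferon regulatory factor matches.

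NLRC5, the transactivator, was the lowest of the 10 genes in each of the 5 groups. It was at 3.91, 2.20 and 2.08 scaled FPKM in sorted sh-NC cells. With sh-B7-H3 (1) it was 7.07, 5.39 and 6.44, and with sh-B7-H3 (2) 8.62, 7.04 and 7.52. The groups did not overlap, and the log2 fold change was 1.13 ± 0.17 (2.18-fold; adjusted p = 0.000845). With sh-B7-H3 (1) alone, its call was lost without sorted sh-NC replicate 2 (adjusted p = 0.0586) and without replicate 1 or 3 of sh-B7-H3 (1) (adjusted p = 0.068 and 0.0667).

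B2M, the light chain shared by all class I molecules, was the exception. It was the most abundant of the 10 genes in all 5 groups, with 5930, 5200 and 3760 scaled FPKM in sorted sh-NC cells. The sh-B7-H3 (1) libraries held 6160, 6700 and 5040 and the sh-B7-H3 (2) libraries 4930, 4650 and 3890. Both shRNA groups overlapped with sh-NC. The log2 fold change of both shRNAs from sh-NC was 0.08 ± 0.24 (adjusted p = 0.86), and its 95% confidence interval, -0.45 to 0.60, does not reach the fold change of any of the other 9 genes. The B2M window printed above holds an interferon regulatory factor match, a CCAAT box and TGACG. The gene model of Patl2 covers all 5398 bases of B2M on the other strand.

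The class I heavy chains that B2M pairs with, which belong to a wider set of class I genes, lay between B2M and the loading genes. H2-K1 rose by 0.94 ± 0.14 (adjusted p = 0.000708) and H2-D1 by 0.66 ± 0.13 (adjusted p = 0.00554) on the log2 scale. Reads of such near-identical genes can be split between copies, so both values are uncertain.

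Of the 6 sorted libraries with an shRNA against B7-H3, replicate 1 of sh-B7-H3 (1) and replicate 1 of sh-B7-H3 (2) each had the highest value for 4 of the 10 genes, and replicate 2 of sh-B7-H3 (1) had the lowest for 6. Replicate 1 of sh-B7-H3 (2) is the library with the high leukocyte and endothelial markers. Without it, 9 of the 10 genes were again called higher, where 1939 of 11336 genes tested were called in either direction. The part of other cells in its values was not tested. Leukocyte marker sums in the other 5 of these libraries, 61.1 to 93.3, were also above those of sorted sh-NC cells. Most of these sums was CD68. It was at 25.0 to 33.3 scaled FPKM in sorted sh-NC cells and 50.9 to 83.1 in sorted cells with either shRNA. The pan-leukocyte marker PTPRC was at 0.0168 to 0.145 in sorted sh-NC cells and 0.142 to 0.158 with sh-B7-H3 (1). Apart from the library that stood apart, PTPRC with sh-B7-H3 (2) lay within the sh-NC range. At such low levels most T cell markers were also higher in sorted sh-B7-H3 (1) than in sorted sh-NC cells. CD3E was at 0 in all sorted sh-NC libraries and at 0.0588 to 0.158 with sh-B7-H3 (1). The means of CD3G (0.0112 with sh-NC and 0.115 with sh-B7-H3 (1)), CD4 (0 and 0.0346) and CD8A (0.0029 and 0.0466) rose as well. CD3D went the other way, with a mean of 0.0322 with sh-NC and 0.0145 with sh-B7-H3 (1). The 5 fibroblast markers summed to 28.0 to 69.6 in sorted sh-NC cells, 44.4 to 73.9 with sh-B7-H3 (1) and 97.3 to 120 with sh-B7-H3 (2). Renal epithelial marker sums were also higher with either shRNA, through EPCAM (mean 21.6 with sh-NC and 168 with both shRNAs), KRT18 (160 and 320), KRT8 (286 and 388) and CDH16 (77.8 and 103), whereas the means of CDH1 (276 and 196), PAX8 (27.7 and 20.9) and PAX2 (12.2 and 11.3) were lower. The part of these markers in the fold changes was not tested.

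Within sorted sh-NC cells the proteasome subunits moved against the loading genes. PSMB5, PSMB6, PSMB7, PSMB8, PSMB9 and PSMB10 were all lowest in replicate 1 and highest in replicate 3, by 1.38-fold (PSMB8) to 2.34-fold (PSMB5). TAP1, TAP2, TAPBP, TAPBPL, ERAP1, NLRC5 and B2M were all highest in replicate 1. The ratio of replicate 3 to replicate 1 in these 7 was 0.531 (NLRC5) to 0.979 (TAPBPL). Dividing PSMB9 by PSMB6 within the library brought the coefficient of variation from 25.1% to 6.37%, and dividing PSMB10 by PSMB7 from 26.7% to 15.4%, whereas dividing PSMB8 by PSMB5 raised it from 15.9% to 25.5%.

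Taken alone, each shRNA gave the same count. With sh-B7-H3 (1), 9 of the 10 genes were called higher than sh-NC (9.03% of all 11163 genes tested) and with sh-B7-H3 (2) also 9 (11.7% of 11243). Both comparisons share the sh-NC libraries. PSMB9 led in both, with log2 fold changes of 2.87 ± 0.27 and 2.59 ± 0.23, and NLRC5 had the lowest fitted values of the 9, 1.00 ± 0.20 and 1.26 ± 0.20, a rank that the pseudocount of 1 lowers at its level. B2M had log2 fold changes of 0.28 (adjusted p = 0.664) and -0.13 (adjusted p = 0.832).

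Between the shRNAs, none of the 10 genes was called (limma; 3.4% of the 11239 genes tested were called in either direction). At an unadjusted p below 0.05, for which no share of all genes was taken, 1 of the 10 passed. That gene was B2M, 0.41 ± 0.18 higher on the log2 scale with sh-B7-H3 (1) than with sh-B7-H3 (2), with no overlap of libraries (adjusted p = 0.227). Same-numbered libraries of these groups deviated together from their group means, and with the replicate number as a block B2M was called (adjusted p = 0.0378), while calls over all genes went from 382 to 1864. The 95% confidence intervals of the other genes were -0.33 to 0.33 for TAP2, -0.34 to 0.42 for TAP1 and -0.35 to 0.92 for PSMB9, so smaller differences between the shRNAs than these bounds could not be told from none with 3 libraries each. Without replicate 1 of sorted sh-B7-H3 (2), again none of the 10 genes was called between the shRNAs, where 890 of 11092 genes tested were. CD276 itself was lower in the libraries labelled sh-B7-H3 (1) by 1.16 ± 0.20 on the log2 scale (adjusted p = 0.0277).

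In bulk tumors, with stromal and immune cells left in, the fitted log2 fold changes of sh-B7-H3 (1) ran from 0.23 (PSMB10) to 1.00 (PSMB9) and 3 of the 10 genes were called higher (12.8% of the 11800 genes tested). The called genes were the aminopeptidase ERAP1, the editor TAPBPL and the subunit PSMB9. All 10 log2 fold changes were above 0, with a median of 0.47 against 0.02 for all genes. The same 3 genes were those without overlap of libraries, which held in the higher direction for 24.4% of all genes tested.

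ERAP1 was at 11.5, 11.4 and 9.14 scaled FPKM in bulk sh-NC tumors and at 22.8, 20.9 and 20.0 with sh-B7-H3 (1). Both groups were narrow and far apart (log2 fold change 0.93 ± 0.11; adjusted p = 0.0044). TAPBPL went from 7.54, 8.56 and 8.24 to 17.6, 19.1 and 12.5 scaled FPKM (0.91 ± 0.16; adjusted p = 0.0113), a call lost without replicate 1 of bulk sh-B7-H3 (1) (adjusted p = 0.0614). PSMB9 went from 11.5, 13.5 and 12.9 to 29.4, 36.2 and 16.8 (1.00 ± 0.26; adjusted p = 0.0357). The call of PSMB9 was lost without any single bulk sh-NC library or without replicate 1 of sh-B7-H3 (1), with adjusted p values of 0.0895 to 0.134, with the replicate block (adjusted p = 0.0538) and with no filter on low values (adjusted p = 0.0722).

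The other 7 genes overlapped between the bulk groups, each through a single sh-B7-H3 (1) tumor, which was replicate 2 for B2M and replicate 3 for the other 6. Replicate 3 of bulk sh-B7-H3 (1) had the lowest value of its group for 9 of the 10 genes. Its TAP1 was 21.9 scaled FPKM, below all bulk sh-NC values of 24.3, 25.3 and 23.3, while replicates 1 and 2 held 36.2 and 43.2. PSMB8 read 97.9, 114 and 50.9 against 63.3, 59.8 and 55.6, PSMB10 read 33.5, 50.2 and 18.1 against 26.8, 28.1 and 25.0, and TAP2 read 28.4, 38.2 and 16.3 against 18.2, 18.5 and 19.5. In each of these genes replicates 1 and 2 lay above, and replicate 3 below, all 3 bulk sh-NC tumors. B2M, at 5110, was the gene for which replicate 3 was not the lowest.

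Without replicate 3 of bulk sh-B7-H3 (1), 8 of the 10 genes were called, where 1658 of 11555 genes tested were called in either direction. This tumor was singled out by its low values in these same genes, and the higher count without it follows from that choice. Without replicate 1 instead, 1 of the 10 genes was called (546 of 11522 genes tested). Replicate 3 had 9 of 20 leukocyte markers at 1 or more, against 14 in each of the other bulk sh-B7-H3 (1) tumors and 8 in each bulk sh-NC tumor, and its 5 fibroblast markers summed to 192, against 450 and 358. Its summed leukocyte level, 481, lay between those of the others, 448 and 662. It also had the lowest relative depth of all 15 libraries, 0.468. Replicate 2, the highest of its group for 8 of the 10 genes, held 74.4% of its summed FPKM in a single entry, MIR6236. That share was 17.19% and 19.81% in replicates 1 and 3, and 29.97%, 41.57% and 79.66% in the bulk sh-NC tumors. The part of these in the result was not tested.

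Set against the constitutive subunits, the bulk differences were larger than for the inducible genes alone. PSMB5, PSMB6 and PSMB7 were each lower in all 3 bulk sh-B7-H3 (1) tumors than in every bulk sh-NC tumor. The share of all genes without overlap in that direction was not taken, and in the higher direction it was 24.4%. Of the 3 falls, that of PSMB5 was called (log2 fold change -0.66 ± 0.17; adjusted p = 0.0338). That call was lost in 9 of 12 alternatives (adjusted p up to 0.264), including FPKM as deposited, the replicate block (0.0542), and leaving out any bulk sh-NC library (0.0594 to 0.118) or sh-B7-H3 (1) replicate 1 (0.138) or 3 (0.076), so it is not secure. PSMB8/PSMB5 was 0.408 ± 0.0657 (SD, n = 3) with sh-NC and 0.925 ± 0.273 with sh-B7-H3 (1), and PSMB9/PSMB6 was 0.104 ± 0.00784 and 0.261 ± 0.0935, both without overlap. PSMB10/PSMB7 was 0.187 ± 0.0211 and 0.304 ± 0.109, with overlap through replicate 3. The log2 differences were 1.15, 1.26 and 0.64, with exact two-sided permutation p of 0.1, 0.1 and 0.3 (0.15, 0.15 and 0.3 adjusted over the 3 ratios), and 3 against 3 libraries cannot go below 0.1.

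**Figure D3:**
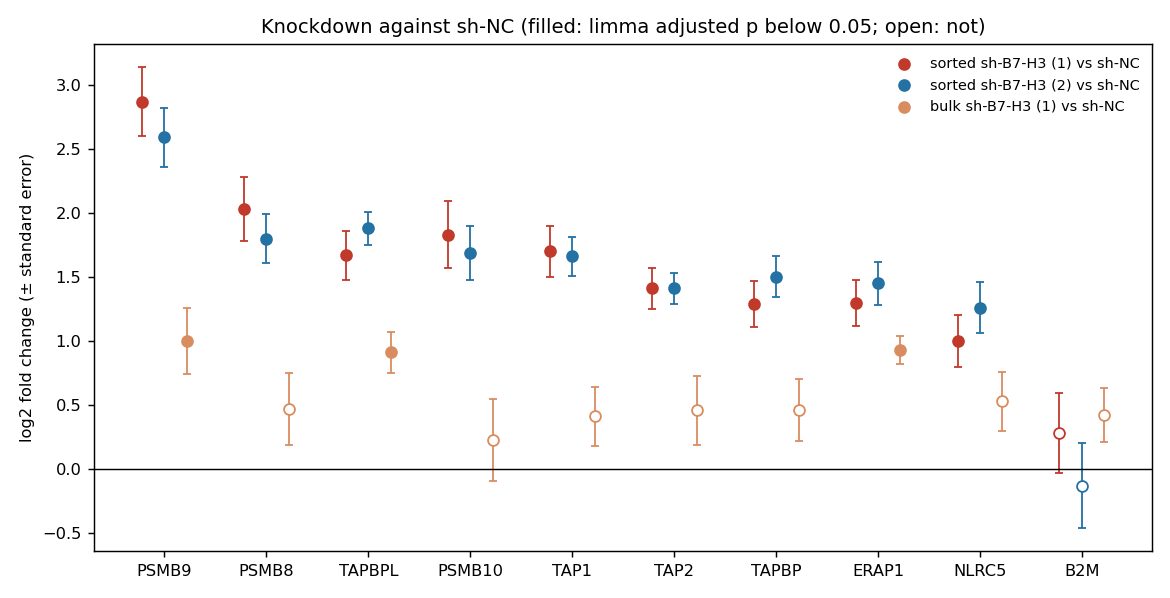
Log2 fold change from sh-NC with its standard error for each of the 10 genes, ordered by the change in sorted cells, for sorted sh-B7-H3 (1), sorted sh-B7-H3 (2) and bulk sh-B7-H3 (1). Both sorted comparisons run together from PSMB9 (2.87 and 2.59) down to B2M, and the bulk values lie between 0.23 and 1.00, with ERAP1, TAPBPL and PSMB9 called.

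The difference between the sorted and the bulk effect of sh-B7-H3 (1) was tested as an interaction. None of the 10 genes was called (limma; 0.464% of 12062 genes were). At the looser limit of an unadjusted p below 0.05, 7 of the 10 passed. The share of all genes at that limit was not taken, so this count cannot be set beside the 0.464%. The largest differences were in the proteasome subunits, with PSMB9 at 1.87 ± 0.41 (adjusted p = 0.0869), PSMB10 at 1.60 ± 0.46 (adjusted p = 0.182) and PSMB8 at 1.56 ± 0.41 (adjusted p = 0.145), each larger in sorted cells. ERAP1 at 0.37 ± 0.22 and NLRC5 at 0.46 ± 0.33 differed least among the 9 genes called in sorted cells. On FPKM as deposited, without scaling, PSMB9 (2.04; adjusted p = 0.0148) and PSMB8 (1.72; adjusted p = 0.0498) were called. The sorted and bulk effects of the 10 genes were thus not shown to differ under the scaling used here.

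Bulk tumors also differed from sorted cells within a construct. With sh-NC, TAP2 and TAPBP were called higher in bulk tumors (0.56 ± 0.12, adjusted p = 0.0175, and 0.63 ± 0.17, adjusted p = 0.0444; 10.4% of 11418 genes were called higher). Neither call held on FPKM as deposited or without any single bulk sh-NC library or sorted sh-NC replicate 2, so it is not secure. With sh-B7-H3 (1), none of the 10 genes was called higher in bulk tumors, and PSMB9, PSMB8, TAP1, TAPBPL and ERAP1 were lower in bulk tumors (17.1% of 11677 genes were called lower). PSMB9 was lower by -1.64 ± 0.32 (adjusted p = 0.00863) and PSMB8 by -1.35 ± 0.33 (adjusted p = 0.0179). The constitutive PSMB5, PSMB6 and PSMB7 were also called lower by limma, so a lower level in bulk was not particular to the inducible and loading genes. Their log2 fold changes were -0.73 ± 0.19 (adjusted p = 0.0224), -0.64 ± 0.11 (adjusted p = 0.00576) and -0.75 ± 0.13 (adjusted p = 0.00564). Without replicate 1 of sorted sh-B7-H3 (1), PSMB9 and ERAP1 remained called among the 10 genes, where 2670 of 11586 genes tested were called in either direction. The calls of TAP1, TAPBPL and PSMB8 were lost in 5, 2 and 1 of 12 alternatives. NLRC5 had a difference of -0.01 ± 0.19. Bulk tumors held leukocyte sums of 414 to 784 with either construct, and the part of those cells in these differences was not tested.

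Other lists of class I pathway genes had lower median log2 fold changes in sorted cells with both shRNAs than the 10 genes (1.55), a contrast that was not tested. Some of their genes rose more than B2M (0.08). Lists of other steps had been drawn up by function. Among 9 proteasome activator and assembly genes, 3 were called higher in sorted cells with both shRNAs and none lower (median log2 fold change 0.40). Of all genes tested there, 12.6% were called higher. PSME1 and PSME2, which form the interferon-inducible PA28 cap that opens the proteasome, were higher by 0.93 ± 0.20 (adjusted p = 0.00832) and 1.01 ± 0.24 (adjusted p = 0.012). PSME1 averaged 95.6 ± 21.1 scaled FPKM with sh-NC (SD, n = 3) and 184 ± 42.9 with both shRNAs (n = 6). The third was PSMG3, an assembly chaperone, at 0.62 ± 0.19 (adjusted p = 0.0421), whose libraries overlapped and whose call was lost in 7 of 15 alternatives (adjusted p up to 0.189, without sorted sh-NC replicate 2), without sorted sh-NC replicate 1 (0.127), sh-B7-H3 (1) replicate 1 (0.0712) or 3 (0.0672) and sh-B7-H3 (2) replicate 1 (0.0775) or 3 (0.0731) among them. Without replicate 1 of sorted sh-B7-H3 (2), 2 of the 9 were called, and without sorted sh-NC replicate 3, 5 were.

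None of 7 general chaperones and glycan editors of the endoplasmic reticulum, such as the calreticulin and PDIA3 that sit in the loading complex, was called in either direction (median -0.02). Of 7 peptidases listed, 6 were tested, and 1 was called higher, the aminopeptidase LAP3 (0.89 ± 0.18; adjusted p = 0.005), from 37.2 ± 7.65 scaled FPKM (SD, n = 3) to 69.7 ± 14.2 (n = 6). Of 8 genes for the promoter complex that NLRC5 joins, 1 was called, NFYA (0.40 ± 0.11; adjusted p = 0.03), a subunit of the factor that binds CCAAT. The NFYA call was lost in 7 of 15 alternatives, among them the replicate block (adjusted p = 0.06) and leaving out sorted sh-NC replicate 2 (0.141) or 3 (0.0763), sh-B7-H3 (1) replicate 3 (0.0565), or any single sh-B7-H3 (2) library (0.0593 without replicate 1, 0.0582 to 0.0627 over all 3). Of all 11424 genes tested, 12.6% were called higher. For lists this short, 1 of 6 peptidases, 1 of 8 promoter complex genes and 0 of 7 chaperones lie near that share. PSME1, PSME2 and LAP3 were thus higher as single genes, and a contrast between the lists was not tested.

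Among factors that carry interferon signals to promoters, IRF1, which binds promoters of several of the 10 genes in other cells, rose by 2.87 ± 0.21 in sorted cells with both shRNAs (7.30-fold; adjusted p = 6.16e-06), above PSMB9 (2.73) by less than either standard error. STAT2 and IRF9, which act in the type I interferon complex, rose by 0.66 ± 0.17 (adjusted p = 0.0175) and 0.59 ± 0.13 (adjusted p = 0.0071). The call of STAT2 was lost without sorted sh-NC replicate 2 (adjusted p = 0.0714) and without replicate 3 (adjusted p = 0.072).

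In bulk tumors with sh-B7-H3 (1), IRF1 rose by 1.38 ± 0.29 (adjusted p = 0.0193). The IRF1 call was lost without any single bulk sh-NC library or sh-B7-H3 (1) replicate 1 (adjusted p = 0.053 to 0.0887). PSME1 was called (0.51 ± 0.09; adjusted p = 0.011), but not on FPKM as deposited (0.379), with all groups together (0.0892) or without sh-B7-H3 (1) replicate 1 (0.0756). PSME2 was not called (0.27 ± 0.14; adjusted p = 0.197), and LAP3 was at 0.14 ± 0.17 (adjusted p = 0.578).

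**Figure D4:**
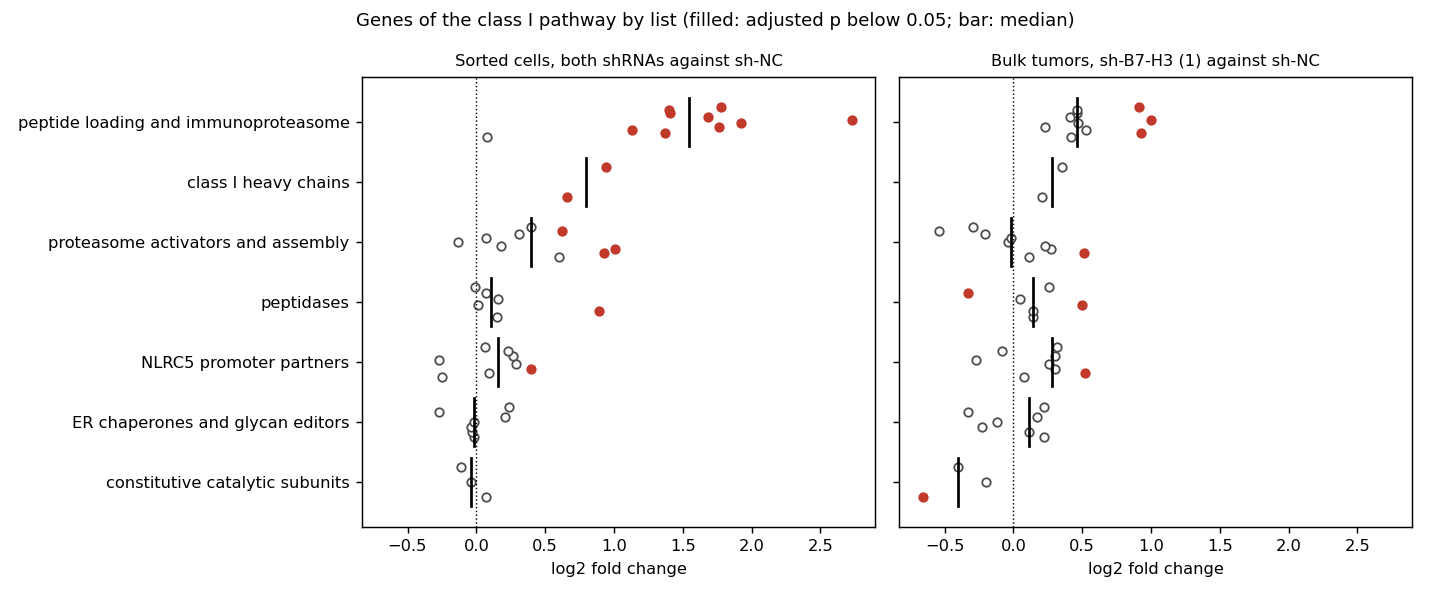
Log2 fold changes of the 10 genes and of 6 lists of other class I pathway genes, in sorted cells with both shRNAs and in bulk tumors with sh-B7-H3 (1), each against sh-NC, with 1 point per gene and a bar at the list's median. In sorted cells the medians run from 1.55 for the 10 genes and 0.80 for the class I heavy chains to -0.02 for general chaperones and -0.04 for constitutive proteasome subunits.

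Among the genes outside the set whose levels followed it most closely over the 9 sorted libraries were IRGM1, GBP7, H2-AA, H2-EB1, IL18BP, CXCL9 and GM12250. Their Pearson's r with the mean level of the set was 0.994 to 0.997. The 9 libraries fall into a low and a high group, so a gene that differs between the groups will correlate, and the values are a description. The members themselves had r of 0.95 to 0.993, to which each contributes, except for B2M with 0.244. IRGM1 and GBP7 are interferon-inducible GTPases, H2-AA and H2-EB1 are class II chains, IL18BP binds interleukin-18, and CXCL9 attracts activated T cells. Class II H2-AA went from a mean of 2.60 to 327 scaled FPKM, and CXCL9 from 3.06 to 50.2.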

How the data were processed

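RNA-seq of 15 libraries was used, 3 in each of 5 groups taken from the sample labels. The authors deposited 1 table of FPKM (fragments scaled by gene length and library size) per gene and library. Single-end 75-cycle reads and a KAPA mRNA HyperPrep kit are named in the methods, an Illumina stranded mRNA kit in the labels. The submitters' processing notes name the build mm10. The aligner, counter and annotation of this table are not given in the sources used here. A further deposited table holds log2(FPKM + 1) of 1000 genes, differing from the first by at most 8.91e-08, and was not used further.

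Of 24917 entries, 26 with date-like symbols were left out. Library scaling factors were median ratios taken from the 9872 genes that reached 1 FPKM in all libraries, since MIR6236 made up 6.01% to 79.66% of a library's summed FPKM (435533 to 1544002). Any gene reaching 1 scaled FPKM in 3 libraries of the comparison entered limma 3.58.1 (R 4.3.3, mean-variance trend) on log2(scaled FPKM + 1), and p-values were adjusted by Benjamini-Hochberg over all genes tested. The procedure was tested on simulated data. Subunit ratios were compared by exact permutation tests. Scripts ran under Python 3.11.15 with pandas 2.3.3 and scipy 1.17.1. The tables give no read totals, so the counting error of a value is unknown.

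The 10 genes, lists and comparisons were chosen with earlier results of these data known. Named genes are the 10, CD276, H2-K1, H2-D1, genes of each list called in sorted cells (the 4 largest changes where more were called), and the 8 genes most correlated with the set. An item that these rules name is not reported here, and the list that held it is given without its count. Values of PSMB5, PSMB6 and PSMB7 accompany the ratios. Alternatives used FPKM as deposited, a pseudocount of 0.1, no filter, a filter in every library, a replicate block, all groups together, or left out each replicate. Replicate numbers were checked for pairing by correlating deviations from group means. For sorted sh-B7-H3 (1) and (2) every r was over 0.1 (0.271, 0.254 and 0.249), a pairing seen in the data and not stated in the labels. Other pairs of groups did not meet this. Gene positions are from GENCODE vM21 (GRCm38) and promoter windows from RefSeq (GRCm38.p6).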

Additional observations from a re-analysis of the deposited data

How the results depend on the processing

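In sorted cells, 9 of the 10 genes were called higher for both shRNAs together and for sh-B7-H3 (2) in each alternative run, and 8 or 9 for sh-B7-H3 (1). Leaving out 1 library at a time gave 1 to 8 called genes for bulk sh-B7-H3 (1) against sh-NC, 0 to 4 for bulk against sorted sh-NC and 2 to 6 for bulk against sorted sh-B7-H3 (1). Calls over all genes moved widely too. In the same order they ran from 546 of 11522 to 3793 of 11490 genes tested, from 139 of 10915 to 4436 of 11327 and from 1674 of 11144 to 3814 of 11140. FPKM as deposited raised the median of all genes in sorted cells by 0.20 and called 2 genes in the interaction and 0 in bulk against sorted sh-NC, where no filter and all groups together gave 1 each. Over all genes, FPKM as deposited called 128 of 12042 and 652 of 11321 in these comparisons. No filter and all groups together called 2434 of 18169 and 3082 of 11418 in bulk against sorted sh-NC. With the replicate block 1 gene was called between the shRNAs, the block lost PSMB9 in bulk tumors (log2 fold change 1.00, adjusted p = 0.0538), and 9 were called in sorted cells with both shRNAs. Without a library, the log2 subunit differences in sorted cells were 1.66 to 2.04 (PSMB8/PSMB5), 2.79 to 2.98 (PSMB9/PSMB6) and 1.80 to 2.03 (PSMB10/PSMB7). With 1 sh-NC library left out the smallest possible p is 0.0714.

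Directions turned only for values near 0. Without 1 library at a time, B2M ran from -0.11 to 0.22 (both shRNAs) and from -0.31 to 0.01 (sh-B7-H3 (2)), and on FPKM as deposited it became 0.11 for sh-B7-H3 (2) and 0.02 in the interaction. Between the shRNAs TAP1 ran from -0.10 to 0.22 (also -0.01), PSMB8 from -0.03 to 0.43 and PSMB10 from -0.11 to 0.34. PSMB10 in bulk tumors ran from -0.10, without sh-B7-H3 (1) replicate 2, to 0.61. For bulk against sorted sh-B7-H3 (1), NLRC5 ran from -0.13 to 0.20 (also 0.07 and 0.01) and TAPBP from -0.41 to 0.07. The causes were not tested. Read totals are unknown, so what depth limits could not be given per gene.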
